A study of Solanum lycopersicum with 21 samples.

Results

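The transcripts described here code for 4 extracellular proteases of tomato leaves: the subtilases P69G (Solyc08g079900, array symbol LOC778308, probe set 20368379) and P69B (Solyc08g079870, probe set 20368373), the subtilisin-like protease LOC101252733 (probe set 20436576) and the cysteine protease pip1 (Solyc02g077040, probe set 20261801). They were taken by their identifiers in the annotation of the array and of the study, and they are 4 of the 67795 probe sets measured. Only P69G and P69B carry a P69 name, LOC101252733 is annotated as a subtilisin-like protease without one, and secretion itself was not measured. All 4 come from a list of transcripts that the study selected as overexpressed after BP178, and they also stand in its list for flg15, both made from these same arrays. Their BP178 and flg15 values are therefore no independent evidence of a response, nor of a BP178 level above that of the hormones.

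Leaves of cv. Rio Grande tomato plants were collected at 24 h after treatment and read on the GeneChip Tomato Gene ST array, on which each transcript is measured by a set of short probes. In experiment 1, plants received the synthetic hybrid peptide BP178 at 125 µM, salicylic acid (SA) at 2.5 mM, jasmonic acid (JA) at 2.5 mM, or ethylene (Et) from ethephon at 1 mM in a phosphate buffer at 2.5 mM, with water on the non-treated controls (NTC e1). In experiment 2, plants received the flagellin fragment flg15 at 125 µM, with water controls of their own (NTC e2). Each of the 7 groups had 3 arrays, which the labels call biological replicates, and each array held RNA pooled from 10 plants, so that 21 arrays were available and their number limits the precision. Ethylene was given in a sealed chamber according to the methods and by spray according to the labels, and since no enclosed control is mentioned, chamber and ethylene cannot be told apart. BP178, SA, JA and Et were all set against the same 3 NTC e1 arrays.

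The values are log2 intensities after RMA, and array medians lay between 2.63 and 2.85. The arrays correlated with each other at a Pearson r between 0.928 and 0.988. The leaf label held for its markers by level. The Rubisco small subunits rbcS1 and LOC543974 and the chlorophyll-binding protein CAB4 averaged between 8.91 and 12.54 in the 7 groups. Of these 3, 0 were called in any treatment, but CAB4 changed by -0.60 on the log2 scale after SA (adjusted p = 0.000855 from limma). Of the fruit markers, PG2 averaged between 2.01 and 2.15 and ACS2 between 1.66 and 2.61, whereas Psy1 averaged between 6.71 and 8.33. Psy1 was called lower after SA, JA and Et, with log2 changes of -1.17, -1.62 and -1.08. It was also lower in NTC e2 than in NTC e1 (-1.40, adjusted p = 1.45e-06 from limma).

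Plants release proteases into the apoplast, the space between cells where many leaf pathogens live. Subtilases are serine proteases, and the P69 subtilases of tomato are counted among the pathogenesis-related proteins of the PR7 type. P69B accumulates in infected tomato tissue and is a target of protease inhibitors secreted by the late blight pathogen. The protein of pip1 is a papain-like cysteine protease of the apoplast, closely related to Rcr3, and both are bound by inhibitors of fungal and oomycete pathogens.

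The study measured P69G by RT-qPCR with a designed primer pair, which is shown because it gives the only sequence stretches of a member in the sources used here. By that assay the study reported this PR7 gene as overexpressed after BP178, and similarly after flg15, which was not examined here. Both primers are 20 bases long with a GC content of 50%, and they are printed 5′ to 3′ in lower case with no base singled out.
LeSub1-f: acctaaaggcgttgtcgtga
LeSub1-r: accccagacattgagctgtt

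All 4 proteases were higher after BP178, and 3 of them after flg15, and after the hormones only LOC101252733 was called, with JA and with Et. A transcript was called overexpressed at a fold change (FC) of at least 2 with an adjusted p below 0.05 in limma over all 67795 probe sets, and lower at an FC of at most 0.5 with the same p. After BP178, 4 of 4 were overexpressed and 0 lower, beside 0.124% and 0.0133% of all probe sets, and after flg15 3 of 4 were overexpressed and 0 lower, beside 0.218% and 0.0384%. Since the study chose them on these arrays, nothing is read from these shares. After SA, limma called 0 of 4 (1 of 4, pip1, at an unadjusted p below 0.05), beside 2.26% of all probe sets overexpressed and 2.12% lower. After JA 1 of 4 rose and after Et 1 of 4, beside 1.64% and 1.18%, and 0 of 4 fell after either (1 of 4, pip1, was lower at an unadjusted p below 0.05 after each), beside 1.7% and 0.667%. Of all 67795 probe sets, 11794 after SA, 11752 after JA and 9711 after Et had an unadjusted p below 0.05, in either direction. The median log2 FC of the 4 was 1.65 in BP178, 1.47 in flg15, -0.06 in SA, -0.11 in JA and 0.98 in Et leaves. Over all probe sets the medians were -0.01, 0.02, 0.01, 0.02 and -0.02 in the same order of treatments. The arrays hold whole-leaf RNA, so a change in the number of cells that express a protease and a change in RNA per cell cannot be told apart.

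**Figure D1:**
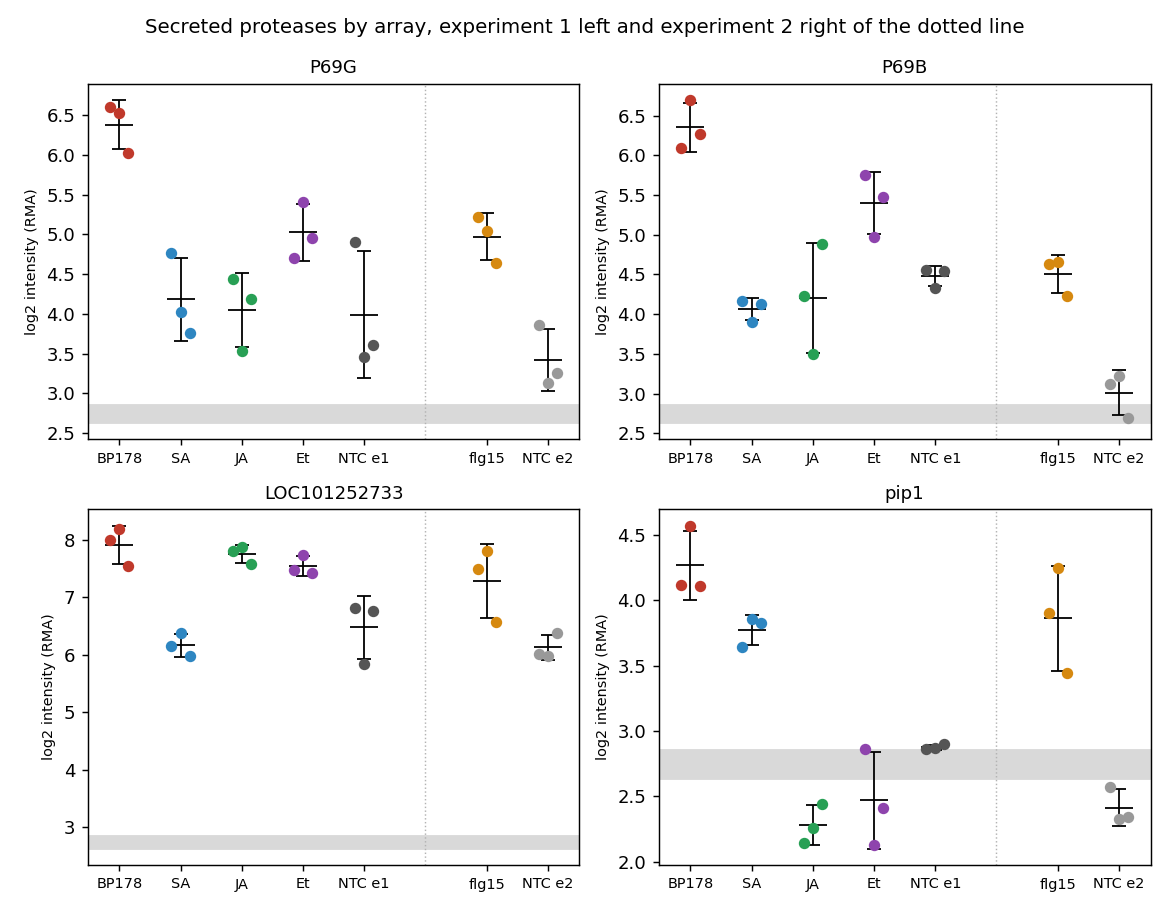
Log2 intensity (vertical axis) of the 4 protease transcripts in each array, by group, with the mean and SD of 3 arrays in black; the grey band spans the medians of the 21 arrays, and the dotted line divides experiment 1 (left) from experiment 2 (right). P69G and P69B stood highest in BP178 leaves, LOC101252733 was also high after JA and Et, and pip1 lay near or below the band after JA and Et and in both controls.

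P69G showed the largest BP178 change of the 4. In BP178 leaves its log2 intensity was 6.60, 6.52 and 6.02, against 4.91, 3.46 and 3.61 in NTC e1 leaves. The groups did not overlap, although NTC e1 replicate 1 stood well above the other control arrays. The log2 FC was 2.39 (SE 0.34, adjusted p = 0.00226 from limma), a 5.24-fold increase that ranked 15th among all 67795 probe sets by log2 FC. The call held whichever array was left out, but it was lost in a fit of the BP178 and NTC e1 arrays alone (adjusted p = 0.0733). In flg15 leaves P69G reached 5.22, 5.05 and 4.64, against 3.86, 3.14 and 3.26 in NTC e2 leaves, again without overlap. Its log2 FC there was 1.55 (SE 0.34, adjusted p = 0.04996), just inside the threshold. This flg15 call was lost in 5 of the 6 fits that left out an array of flg15 or NTC e2 (adjusted p between 0.062 and 0.221) and held only without NTC e2 replicate 1. It was also lost in a fit of those 2 groups alone (adjusted p = 0.0527).

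After Et, P69G measured 4.70, 5.41 and 4.96, and the lowest of these arrays lay below the highest NTC e1 array. The log2 FC of 1.03 (SE 0.34, adjusted p = 0.109) was not called, but it was called without NTC e1 replicate 1, at 1.49 (adjusted p = 0.00811). SA leaves gave 4.77, 4.02 and 3.77 and JA leaves 4.44, 3.53 and 4.18, both inside the range of the NTC e1 arrays. The log2 FC was 0.19 after SA (adjusted p = 0.906, 95% interval -0.53 to 0.91) and 0.06 after JA (adjusted p = 0.968, 95% interval -0.66 to 0.78). From high to low the group means were 6.38 ± 0.31 in BP178, 5.02 ± 0.36 in Et, 4.97 ± 0.30 in flg15, 4.18 ± 0.52 in SA, 4.05 ± 0.47 in JA, 3.99 ± 0.80 in NTC e1 and 3.42 ± 0.39 in NTC e2 (SD, n = 3 each). BP178 and Et differed at the threshold (1.36, adjusted p = 0.0313 from limma), but this held in only 2 of the 6 fits that left out an array. The neighbours from SA to NTC e1 did not differ beyond their spread.

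P69B, the best studied of the P69 subtilases in plant defense, was likewise highest after BP178. It measured 6.09, 6.70 and 6.26 in BP178 leaves, against 4.56, 4.33 and 4.54 in NTC e1 leaves, where the control arrays lay close together. The log2 FC was 1.87 (SE 0.27, adjusted p = 0.00211), a 3.66-fold increase. In flg15 leaves P69B was 4.63, 4.66 and 4.22, against 3.12, 3.22 and 2.69 in NTC e2 leaves. The groups did not overlap and the log2 FC was 1.50 (SE 0.27, adjusted p = 0.00999), a 2.82-fold increase. The flg15 level of 4.51 ± 0.24 was close to the 4.48 ± 0.13 of the NTC e1 leaves, which had received only water (SD, n = 3 each).

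The controls of P69B differed between the experiments. Its NTC e2 mean of 3.01 ± 0.28 lay below the NTC e1 mean, with a log2 difference of -1.47 for NTC e2 against NTC e1 (SE 0.27, adjusted p = 0.00165), and it was the only 1 of the 4 proteases to differ, beside 2.37% of all probe sets that were lower in NTC e2. The differences were -0.57 for P69G (adjusted p = 0.520), -0.35 for LOC101252733 (adjusted p = 0.681) and -0.46 for pip1 (adjusted p = 0.247). With the NTC arrays of both experiments as 1 control, the flg15 call of P69B was lost (log2 FC 0.76, adjusted p = 0.0715), and it was also lost without NTC e2 replicate 3 or without flg15 replicate 1 (log2 FC 1.34 and 1.43). The part of the difference between experiments in the flg15 result was not tested further.

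Et leaves held P69B at 5.75, 4.97 and 5.47, all above every NTC e1 array, but the log2 FC of 0.92 (SE 0.27, adjusted p = 0.0552) was not called. Without Et replicate 2 it was 1.13 and was called (adjusted p = 0.0305). SA leaves measured 4.16, 3.91 and 4.12, all below the NTC e1 arrays, with a log2 FC of -0.42 (adjusted p = 0.519), and JA leaves measured 4.23, 3.50 and 4.88, on both sides of them, with -0.28 (adjusted p = 0.710). In the order of means BP178 (6.35) was followed by Et (5.40), flg15 (4.51), NTC e1 (4.48), JA (4.20), SA (4.06) and NTC e2 (3.01). Within experiment 1, BP178 and Et did not differ at the threshold (0.95, adjusted p = 0.0554), nor did the other neighbours JA and SA.

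Of the subtilases P69G, P69B and LOC101252733, only LOC101252733 was also called after JA and Et. JA leaves gave 7.80, 7.87 and 7.57, Et leaves 7.48, 7.73 and 7.42 and BP178 leaves 8.00, 8.19 and 7.54, against 6.81, 5.84 and 6.77 in NTC e1 leaves. All 9 treated arrays lay above all control arrays, and NTC e1 replicate 2 stood below the other controls. The log2 FC was 1.43 after BP178 (SE 0.27, adjusted p = 0.0305), 1.27 after JA (SE 0.27, adjusted p = 0.00370) and 1.07 after Et (SE 0.27, adjusted p = 0.0253).

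These 3 calls all ended without NTC e1 replicate 2, where the log2 FC was 1.12 after BP178 (adjusted p = 0.199), 0.96 after JA (adjusted p = 0.0368) and 0.75 after Et (adjusted p = 0.163). The BP178 call also ended without BP178 replicate 1 or 2, and the Et call without Et replicate 1 or 2, and both ended in fits of the 2 compared groups alone (adjusted p = 0.168 for BP178 and 0.0748 for Et). SA leaves measured 6.15, 6.37 and 5.97, within the range of the controls, with a log2 FC of -0.31 (adjusted p = 0.719).

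In flg15 leaves LOC101252733 was 7.49, 7.79 and 6.57, against 6.02, 5.99 and 6.38 in NTC e2 leaves. The arrays did not overlap, but flg15 replicate 3 lay close to the highest control, and the log2 FC of 1.16 (SE 0.27, adjusted p = 0.0708) was not called. Without flg15 replicate 3 it was 1.51 and was called (adjusted p = 0.00548). The means ran in the order BP178 (7.91 ± 0.34), JA (7.75 ± 0.16), Et (7.54 ± 0.17), flg15 (7.28 ± 0.64), NTC e1 (6.47 ± 0.55), SA (6.17 ± 0.20) and NTC e2 (6.13 ± 0.22), with SD and n = 3 each. BP178, JA and Et overlapped in their arrays and did not differ from each other at the threshold.

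The cysteine protease pip1 lay near the array median in its controls and was the only member whose SA arrays all stood above them. BP178 leaves measured 4.12, 4.57 and 4.11, against 2.86, 2.87 and 2.90 in NTC e1 leaves, and flg15 leaves 3.90, 4.24 and 3.44, against 2.57, 2.32 and 2.34 in NTC e2 leaves. All peptide arrays lay above all controls. The log2 FC was 1.39 after BP178 (SE 0.19, adjusted p = 0.00182, 2.63-fold) and 1.45 after flg15 (SE 0.19, adjusted p = 0.000398, 2.73-fold). Both calls held whichever array was left out.

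SA leaves gave pip1 values of 3.64, 3.85 and 3.83, also above every control. The log2 FC of 0.90 had an adjusted p = 0.00269 (SE 0.19), but the FC of 1.87 stayed under the minimum of 2, so pip1 was not called after SA. JA leaves lay on the other side of the controls, at 2.14, 2.25 and 2.44, with a log2 FC of -0.60 (adjusted p = 0.0632), and Et leaves reached 2.86, 2.13 and 2.41, with -0.41 (adjusted p = 0.340).

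The means of pip1 were 4.27 ± 0.26 in BP178, 3.86 ± 0.40 in flg15, 3.77 ± 0.11 in SA, 2.87 ± 0.02 in NTC e1, 2.47 ± 0.37 in Et, 2.41 ± 0.14 in NTC e2 and 2.28 ± 0.15 in JA (SD, n = 3 each). On its own array pip1 stood on average at percentile 76.9 of all probe sets in BP178 leaves, but at percentile 54.0 in NTC e1, 35.6 in NTC e2, 38.2 in Et and 27.8 in JA. Values this close to the array median can hold mostly background, so the FC of pip1 may be understated and its order among JA, Et and the controls has little meaning. The corresponding percentiles lay between 67.3 and 89.9 for P69G, 58.3 and 89.7 for P69B, and 89.0 and 96.0 for LOC101252733.

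**Figure D2:**
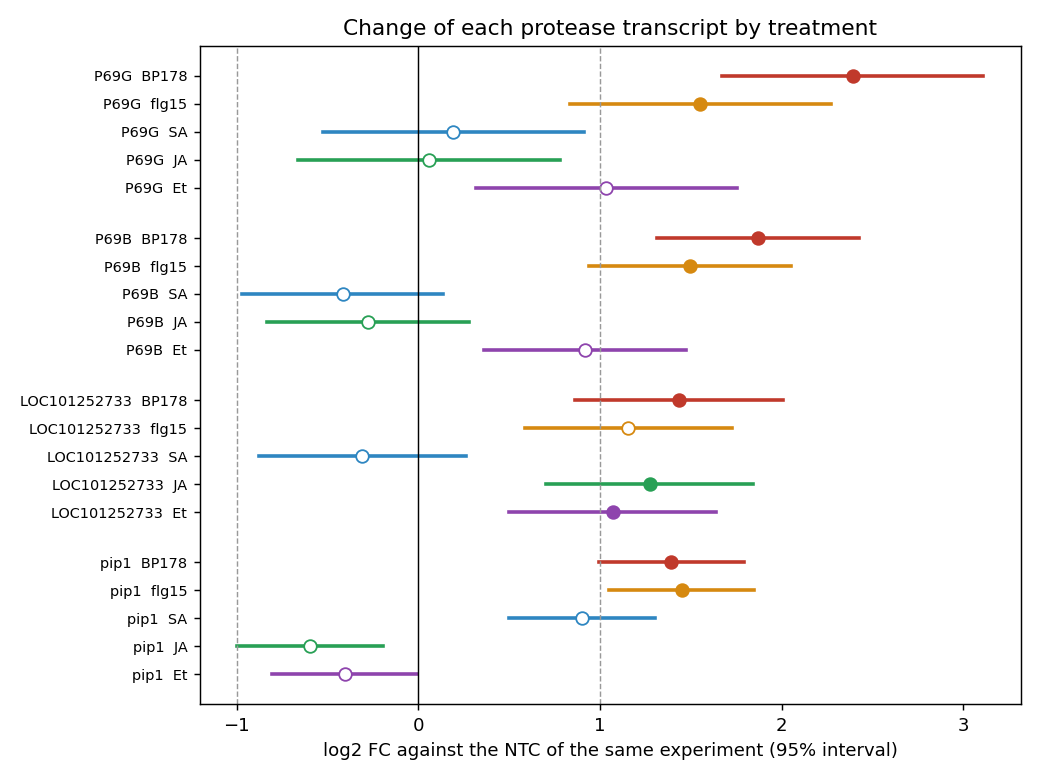
Log2 FC of the 4 transcripts in each treatment against the NTC of its own experiment (horizontal axis), with the 95% interval from limma; filled circles were called, open circles were not, and dashed lines mark an FC of 2 and of 0.5. The intervals of P69G and P69B lay above 0 after BP178, flg15 and Et, that of LOC101252733 after every treatment but SA, and that of pip1 after BP178, flg15 and SA.

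Treatments of experiment 1 were also compared directly with each other, in 6 comparisons and without the control arrays, at an adjusted p below 0.05 over all probe sets. BP178 leaves held more P69G, P69B and LOC101252733 than SA leaves, by 2.20, 2.29 and 1.74 on the log2 scale (adjusted p = 0.000147, 4.00e-06 and 0.000148), beside 5.34% of all probe sets higher and 3.75% lower in BP178. They held more P69G, P69B and pip1 than JA leaves, by 2.33, 2.15 and 1.99 (adjusted p = 0.000109, 1.47e-05 and 6.84e-07), beside 4.39% higher and 2.65% lower. Against Et leaves, P69G was higher by 1.36 (adjusted p = 0.0313) and pip1 by 1.80 (adjusted p = 5.06e-06), beside 1.63% higher and 1.68% lower. The P69G difference from Et lost its call in 4 of the 6 fits that left out an array, those without BP178 replicate 1 or 2 or Et replicate 1 or 3. The threshold was missed by pip1 against SA (0.49, adjusted p = 0.147) and by LOC101252733 against JA (0.16, adjusted p = 0.865). Against Et it was missed by P69B (0.95) and LOC101252733 (0.37, adjusted p = 0.747). All 4 proteases had been selected as overexpressed on these same BP178 arrays, which tilts the comparisons towards BP178. The p-values and shares of the BP178 comparisons are therefore no independent evidence of a higher level.

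Among the hormones, pip1 was higher and LOC101252733 lower in SA leaves than in JA or Et leaves. SA leaves held more pip1 than JA leaves (1.50, adjusted p = 1.21e-05, beside 4.36% higher of all probe sets) and more than Et leaves (1.31, adjusted p = 5.65e-05, beside 4.8%). They held less LOC101252733 than JA leaves (-1.58, adjusted p = 0.000413, beside 4.01% lower) and than Et leaves (-1.38, adjusted p = 0.00135, beside 7.04%). P69B was lower in SA than in Et leaves (-1.33, adjusted p = 0.00141) and lower in JA than in Et leaves (-1.20, adjusted p = 0.00620, beside 4.73% lower and 2.79% higher). For P69G no pair of hormones passed, with -0.84 for SA against Et (adjusted p = 0.141), -0.98 for JA against Et (adjusted p = 0.103) and 0.13 for SA against JA (adjusted p = 0.921). The remaining differences, of P69B between SA and JA and of LOC101252733 and pip1 between JA and Et, lay between -0.19 and 0.20.

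The peptides were used at the same concentration and time, but in different experiments, so their responses were compared as the BP178 change minus the flg15 change. The difference was 0.84 for P69G (95% interval -0.18 to 1.85, adjusted p = 0.627), 0.38 for P69B (-0.41 to 1.16, adjusted p = 0.813), 0.28 for LOC101252733 (-0.53 to 1.09, adjusted p = 0.875) and -0.06 for pip1 (-0.62 to 0.51, adjusted p = 0.973). Thus 0 of 4 passed in limma (0 of 4 also at an unadjusted p below 0.05), beside 0.0325% of all probe sets with a larger BP178 response and 0.0546% with a larger flg15 response. The intervals leave room for differences of more than 1 on the log2 scale in the 3 subtilases, so the test does not show that the peptides act alike.

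Other proteases were followed through lists drawn from symbols and descriptions of the array and of the study, with 3 P69 subtilases, 9 other subtilases, 3 papain-like cysteine proteases and 3 aspartic proteases. Those that entered through a description in the study's own table had been selected on these arrays, which is so for every listed protease except P69A, sbt4a, sbt3, SBT2 and SBT1. Descriptions covered only 770 of the 67795 probe sets and 44431 had no symbol, so the lists do not hold these families in full. A cysteine protease inhibitor was not found by the same search, which has the same limit.

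P69A, the remaining P69 subtilase with a named probe set, was lower after each hormone and was not called after either peptide. It measured 7.08, 6.43 and 6.32 in SA leaves, 6.28, 6.72 and 6.56 in JA leaves and 6.34, 6.97 and 6.70 in Et leaves, against 8.11, 7.77 and 7.73 in NTC e1 leaves. None of these 9 arrays reached the controls, and P69A fell by 1.26 after SA (adjusted p = 0.00137), by 1.35 after JA (adjusted p = 0.000989) and by 1.20 after Et (adjusted p = 0.00557). It was thus the single P69 transcript of 3 lower in each hormone, beside the 2.12%, 1.7% and 0.667% given above. BP178 and flg15 leaves had log2 FC values of -0.22 and -0.45 for P69A, neither of them called. The NTC e2 mean of P69A was 6.88 ± 0.09, against 7.87 ± 0.21 in NTC e1 (SD, n = 3 each), a difference of -0.99 (adjusted p = 0.0239), and the hormone means of 6.61 in SA, 6.52 in JA and 6.67 in Et leaves lay close to that NTC e2 mean.

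**Figure D3:**
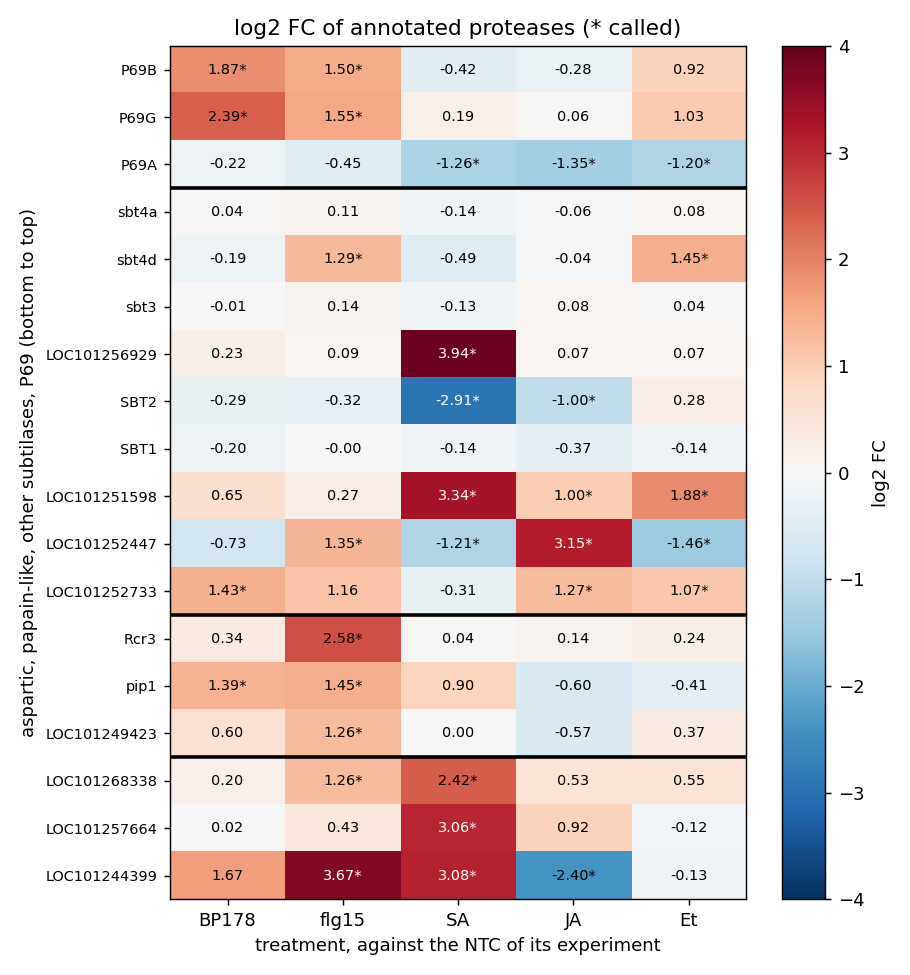
Log2 FC of each listed protease (rows, in 4 families divided by black lines) in each treatment against the NTC of its experiment (columns), with red for higher, blue for lower and an asterisk for a call. P69G and P69B had the largest increases of the listed proteases after BP178, but after flg15 LOC101244399 (3.67) and Rcr3 (2.58) rose more. The strongest colours of the other subtilases and aspartic proteases lay under SA, JA and flg15.

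Among the 9 other subtilases listed, LOC101252733 was the only 1 overexpressed after BP178, and the list median was -0.01 there. The hormones changed other members. LOC101256929 rose by 3.94 after SA (adjusted p = 4.30e-11) and lay between 0.07 and 0.23 in the other treatments. LOC101251598 rose by 3.34 after SA, 1.00 after JA and 1.88 after Et, and SBT2 fell by 2.91 after SA and by 1.00 after JA. In all, 2 rose and 2 fell after SA, 3 rose and 1 fell after JA, 3 rose and 1 fell after Et, and 2 rose after flg15. Over all probe sets the shares that rose and fell were 2.26% and 2.12% after SA, 1.64% and 1.7% after JA and 1.18% and 0.667% after Et, and 0.218% rose after flg15. Apart from SBT2, the called subtilases had been selected by the study on these arrays, so nothing is read from these shares.

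The subtilase gene LOC101252447 (Solyc10g084320) lies directly beside LOC101252733 in the RefSeq annotation (assembly SLM_r2.1), and their values differed by treatment. LOC101252447 measured 10.83, 10.80 and 10.66 in JA leaves, against 7.20, 7.14 and 8.50 in NTC e1 leaves, and rose by 3.15 (adjusted p = 2.53e-07). After Et, where LOC101252733 was overexpressed, it fell by 1.46 (adjusted p = 0.00348), and after SA it fell by 1.21 (adjusted p = 0.00701). It rose by 1.35 after flg15 (adjusted p = 0.0435) and was not called after BP178 (log2 FC -0.73). The subtilase sbt4d (Solyc01g087810) rose by 1.29 after flg15 and by 1.45 after Et (adjusted p = 0.0381 and 0.00202).

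Of the papain-like cysteine proteases, Rcr3 responded to flg15. Rcr3, a relative of pip1 known from tomato immunity, measured 5.06, 5.76 and 4.55 in flg15 leaves, against 2.58, 2.54 and 2.49 in NTC e2 leaves, and rose by 2.58 (SE 0.23, adjusted p = 2.58e-06). In BP178 leaves it was 2.73, 2.99 and 2.51, against 2.24, 2.56 and 2.40 in NTC e1 leaves, a log2 FC of 0.34 that was not called, and its log2 FC lay between 0.04 and 0.24 after the hormones. All these values other than those of flg15 lay near the array median or below it. The difference between the peptide responses of Rcr3 passed the test, at -2.25 for BP178 minus flg15 (95% interval -2.92 to -1.57, adjusted p = 0.00471), whereas that of pip1 did not. Since the study had selected Rcr3 on these arrays, its difference is no independent evidence.

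LOC101249423 (Solyc02g077050), annotated as a SEN102-like cysteine protease, follows pip1 directly in the RefSeq order. It measured 6.31, 6.22 and 5.92 in flg15 leaves, against 4.47, 4.81 and 5.38 in NTC e2 leaves, and rose by 1.26 (adjusted p = 0.00359). Its log2 FC after BP178 was 0.60, without a call. Thus 3 of 3 papain-like proteases rose after flg15, 1 of 3 after BP178 and 0 of 3 after SA, JA or Et. At an unadjusted p below 0.05 in limma, 1 of 3 was higher after SA, but 2 were lower after JA and 1 was lower after Et. Of all probe sets 0.218% rose after flg15, 0.124% after BP178, 2.26% after SA, 1.64% after JA and 1.18% after Et. All 3 had been selected by the study, in part on the flg15 arrays.

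**Figure D4:**
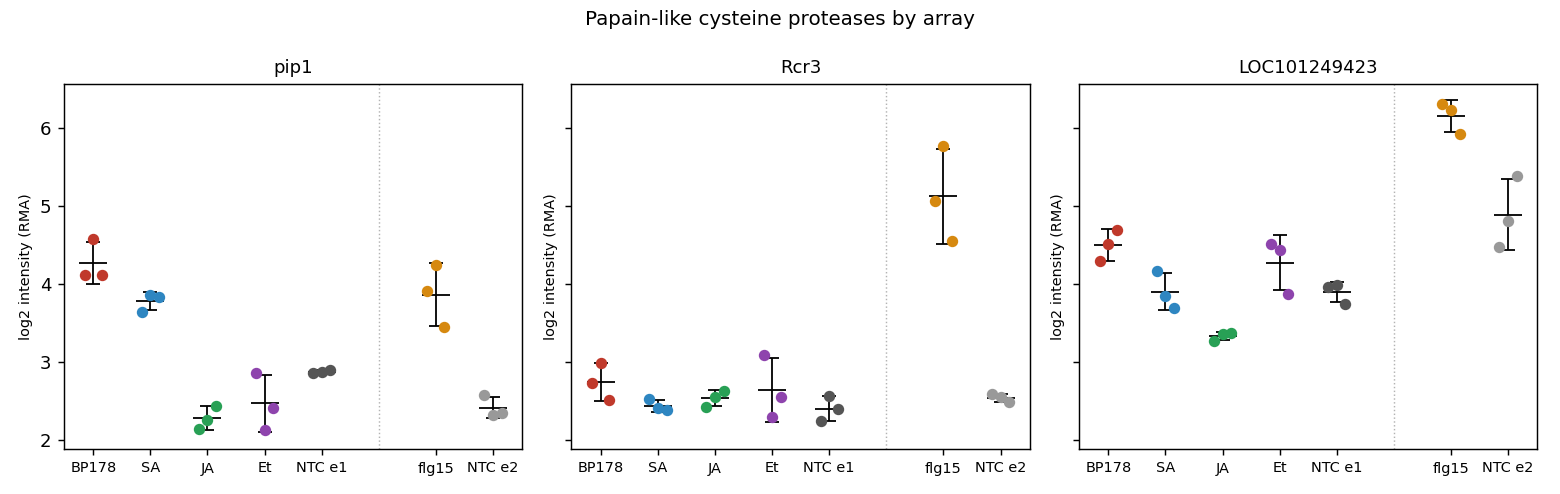
Log2 intensity (vertical axis) of pip1, Rcr3 and LOC101249423 in each array by group, with the mean and SD of 3 arrays in black and the dotted line between experiment 1 (left) and experiment 2 (right). The flg15 arrays stood above NTC e2 in all 3 panels, but in BP178 leaves Rcr3 stayed near 2.74 while pip1 averaged 4.27.

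Of the 3 aspartic proteases 0 were called after BP178 (1 at an unadjusted p below 0.05), 3 rose after SA by 2.42 to 3.08, beside 2.26% of all probe sets, and 2 rose after flg15, beside 0.218%. LOC101244399 (Solyc08g068870) rose by 3.67 after flg15 and by 3.08 after SA and fell by 2.40 after JA. Its log2 FC of 1.67 after BP178 did not pass the test. All 3 aspartic proteases had been selected by the study on these arrays, so nothing is read from these shares.

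P69G and P69B belong to a run of P69 genes. In the RefSeq order P69A, p69d and LOC108511949 come before P69B, then p69c and LOC101254322, then P69G, and p69F stands after it. No probe set named here belongs to p69c, p69d, p69F or LOC108511949. P69 copies are similar in sequence, the probe sequences are not used here, and binding of RNA from 1 copy to the probes of another was not tested. LOC101254322, which sits between P69B and P69G, was not called after either peptide (log2 FC 0.11 for BP178 and -0.15 for flg15). Of 25 probe sets for the 24 other genes within 5 coding genes of a member, 0 were called after BP178 and 2 rose after flg15 (LOC101249423 and LOC101252447). Beyond the peptides, 2 rose and 3 fell after SA, 3 rose and 2 fell after JA, and 2 rose and 3 fell after Et. The shares of all probe sets that rose and fell were 0.124% and 0.0133% for BP178, 0.218% and 0.0384% for flg15, 2.26% and 2.12% for SA, 1.64% and 1.7% for JA, and 1.18% and 0.667% for Et. Thus 0 of 25 called after BP178 is near the share of calls over all probe sets. At an unadjusted p below 0.05 in limma, 4 of the 25 were higher and 1 lower after BP178, beside 4927 of all 67795 probe sets in either direction.

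The transcripts with the most similar pattern were found by Pearson r over the 21 arrays among 23190 probe sets with 1 gene symbol, as a description in which the arrays share groups and experiments. The lipoxygenase LOC101263535 (Solyc08g029000), of an enzyme class that oxidizes polyunsaturated fatty acids, was closest to P69G (r = 0.925) and to P69B (r = 0.847). It rose by 3.86 after BP178 and by 2.17 after Et. P69G was followed by LOC101246992 (0.759) and the tropinone reductase LOC101263402 (0.735), and P69B by the malic enzyme ME2 (0.833) and LOC101261124 (0.805). LOC101252733 was closest to the osmotin-like LOC101264959 (0.843), a PR5-type protein that rose by 2.14, 3.23, 2.95 and 4.30 in BP178, flg15, JA and Et leaves, then to LOC101258516 (0.775) and LOC101248449 (0.758).

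The pattern of pip1 was nearest to that of the calreticulin LOC101262304 (Solyc04g048900), a calcium-binding chaperone of the endoplasmic reticulum (r = 0.917). Next came the acidic chitinase LOC101253788 (Solyc05g050130, r = 0.851) and the cysteine-rich receptor-like kinase LOC101245329 (Solyc12g005720, r = 0.829). All 3 rose after flg15, by 2.67, 2.88 and 3.84, and after BP178 the chitinase rose by 1.51 and the kinase by 2.70, while the calreticulin had a log2 FC of 1.21 (adjusted p = 0.0575). None of the 3 was called after a hormone.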

How the data were processed

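RNA from leaves was hybridized to 21 arrays in 7 groups. The authors ran RMA in Expression Console, which corrects background, normalizes between arrays and summarizes probes, and the deposited values are log2 intensities. The software version was not given in the sources used here. Arrays hold no read depth, so precision rests on 3 arrays per group. A single limma model (version 3.58.1, R 4.3.3) covered the 67795 probe sets, with a mean per group, empirical Bayes moderation and Benjamini-Hochberg adjustment over all probe sets, two-sided. Treatments were set against the NTC arrays run with them.

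The members and lists were chosen with earlier results of these data known. The 4 members and P69A are given in full. Of the other lists, up to 3 increases and 2 decreases per treatment are named, and for each member the 3 transcripts with the highest r. Values outside this rule, such as those of the aspartic proteases and of genes beside the members, were added after being seen. The array annotation gives 1 symbol for 23194 probe sets (23106 found in RefSeq), several for 170 and none for 44431. Descriptions covered 770 probe sets. Coordinates are left out because the annotation names no genome build. Fold changes and p-values in the study's tables were not used.

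Alternatives were a replicate block, pooled NTC arrays of both experiments, omission of single arrays, array weights, a robust prior with trend, fits of 2 groups, omission of the dimmest 25% of probe sets, and quantile or median scaling. Leaving arrays out of the direct comparisons was added after the data were seen. On simulated data the fit recovered 45 to 48 of 50 probe sets changed by 1.5 on the log2 scale, over the 5 treatment comparisons. The simulated noise was normal and independent, with the same SD in all groups and no differences between arrays or experiments. It therefore does not give the recovery on the real arrays.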

Additional observations from a re-analysis of the deposited data

Results flagged for a closer look

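Rcr3 responded differently to the peptides. The BP178 change minus the flg15 change came to -2.25 in log2 units (limma, adjusted p = 0.00471), with a mean of 5.12 in flg15 leaves against 2.54 in NTC e2 leaves, and of 2.74 in BP178 leaves against 2.40 in NTC e1 leaves. It is listed here because this difference passed the test. Rcr3 entered its list through the study's own table, selected on these same arrays, so the difference is no independent evidence. The peptides were applied in different experiments, and a part of the experiment in this difference was not tested beyond the use of each experiment's own NTC.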

How the results depend on the processing

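Calls of P69G, P69B and pip1 after BP178 and of pip1 after flg15 held whichever array was left out, with 3 arrays per group limiting precision. Every other call of a member against its NTC was lost in at least 1 such fit. These were the calls of LOC101252733 after BP178, JA and Et and of P69G and P69B after flg15. The 4 BP178 and 4 flg15 values kept their sign under every setting tried.

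With quantile normalization the flg15 value of LOC101252733 was 1.28 and the BP178 minus Et difference of P69B 0.98, both past the threshold. Median centring turned the peptide difference of pip1 to 0.062. Leaving out the dimmest 25% of probe sets or using a trended robust prior brought the BP178 minus Et difference of P69B (0.95) past the threshold, and the robust prior also the flg15 value of LOC101252733 (1.16). With 2 groups alone, 48 probe sets were called after BP178 instead of 93 and 103 after flg15 instead of 174, and calls were lost for P69G (2.39) and LOC101252733 (1.43) after BP178, P69G after flg15 (1.55) and LOC101252733 after Et (1.07). With array weights P69G after Et (1.27), BP178 minus Et of P69B (1.09), SA minus Et of P69G (-1.07) and JA minus Et of P69G (-1.09) passed. Against the NTC of both experiments, 339 probe sets were called after BP178 (268 higher, 71 lower, against 84 and 9) and 479 after flg15 (208 higher, 271 lower, against 148 and 26). P69B lost its flg15 call (0.76) and turned positive after SA (0.32) and JA (0.46), while pip1 after SA (1.13), P69G after Et (1.32) and P69B after Et (1.65) were called.

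Deviations of same-numbered arrays from their group means correlated between -0.19 and 0.19, beside -0.23 to 0.26 for arrays of different number. These weak correlations do not settle whether replicate numbers pair the arrays, and the main fit left them unpaired. As a replicate block, the replicate numbers ended the BP178 call of LOC101252733 (1.43, adjusted p = 0.072) and brought BP178 minus Et of P69B (0.95) past the threshold. They changed no other call of the 4 proteases.

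Leaving out arrays in turn gave 55 to 92 calls after BP178 (55 without NTC e1 replicate 2 and 55 without BP178 replicate 2) and 119 to 331 after flg15 (331 without flg15 replicate 2). Log2 FC ranged from 1.12 to 1.62 for LOC101252733 after BP178, 0.90 to 1.51 after flg15, 0.96 to 1.44 after JA and 0.75 to 1.24 after Et. For P69G the range was 1.41 to 1.77 after flg15, 0.77 to 1.49 after Et, -0.10 to 0.65 after SA and -0.21 to 0.52 after JA, and for P69B 1.34 to 1.64 after flg15, 0.74 to 1.13 after Et and -0.62 to 0.076 after JA. The peptide difference ranged from -0.080 to 0.53 for LOC101252733 and -0.27 to 0.13 for pip1. BP178 minus Et ranged from 1.20 to 1.55 for P69G and 0.74 to 1.13 for P69B, SA minus JA from -0.16 to 0.34 for P69G and -0.49 to 0.20 for P69B, and JA minus Et from -0.36 to 0.0072 for pip1. The causes of these changes were not tested.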
